A study of Mus musculus with 8 samples.

Results

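The genes described here are the CDK inhibitors and the retinoblastoma (RB) family, the brakes that hold a cell between G1 and S phase. They were chosen by symbol: a row of the array table counted when its RefSeq transcript maps to Cdkn1a, Cdkn1b, Cdkn2a, Cdkn2b, Cdkn2c, Cdkn2d, Rb1, Rbl1 or Rbl2, and rows with identical values counted once. Of these 9 genes, 8 were matched, by 11 rows that hold 9 distinct value profiles, among 15653 genes named in the whole table. No row was matched to Cdkn2d, which is not analysed here.

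Expression was measured on 8 Affymetrix mouse arrays in 3 cloned lines of p53-null fetal fibroblasts. All cultures were kept in 65 µM ZnCl2 for 48 h, with puromycin at 5 µg/ml. Ind-8 cells (3 arrays) carry a p53 cDNA driven by a modified, zinc-responsive human metallothionein promoter, and are labelled as renewing asymmetrically, so that divisions give a cycling and an arrested daughter cell. Con-3 cells (3 arrays) express no p53 and renew symmetrically; they are a vector control according to the methods, but a congenic parent line according to the sample labels. The tI-3 cells (2 arrays) were derived from Ind-8, induce p53 with zinc and also express IMPDH II, the rate-limiting enzyme of guanine nucleotide synthesis, constitutively, and they renew symmetrically. Their medium also held G418, at 1 µg/ml in the labels and 1 mg/ml in the methods. Each state is represented by 1 clone, so state and clone cannot be told apart, and G418 cannot be told apart from the tI-3 line.

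CDK inhibitors bind cyclin-dependent kinases or their cyclin complexes. CIP/KIP proteins, such as p21 (Cdkn1a) and p27 (Cdkn1b), act on the complexes of G1 and S phase, whereas INK4 proteins act on CDK4 and CDK6. When CDK activity is low, the pocket proteins pRB (Rb1), p107 (Rbl1) and p130 (Rbl2) stay bound to E2F factors and hold cell cycle genes down. Fibroblasts in culture are a classic setting for this pathway, because p53 switches on Cdkn1a, and because the Ink4/Arf locus (Cdkn2a and Cdkn2b) responds to prolonged culture.

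All values are log2 expression, and the array medians lay between 6.12 and 6.19. Con-3 replicate 3 stood apart from the other arrays on control rows. Its 3 rows for 18S ribosomal RNA averaged 10.63, against 5.58 to 6.46 on the other 7 arrays. The 18 rows that report the spiked hybridization controls averaged 10.44 on that array and 10.24 and 10.46 on the tI-3 arrays, against 9.88 to 10.00 on the other 5 arrays. Their level therefore moves with the tI-3 line and with Con-3 replicate 3, and members' calls are given below with and without that array where they differ.

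**Figure D1:**
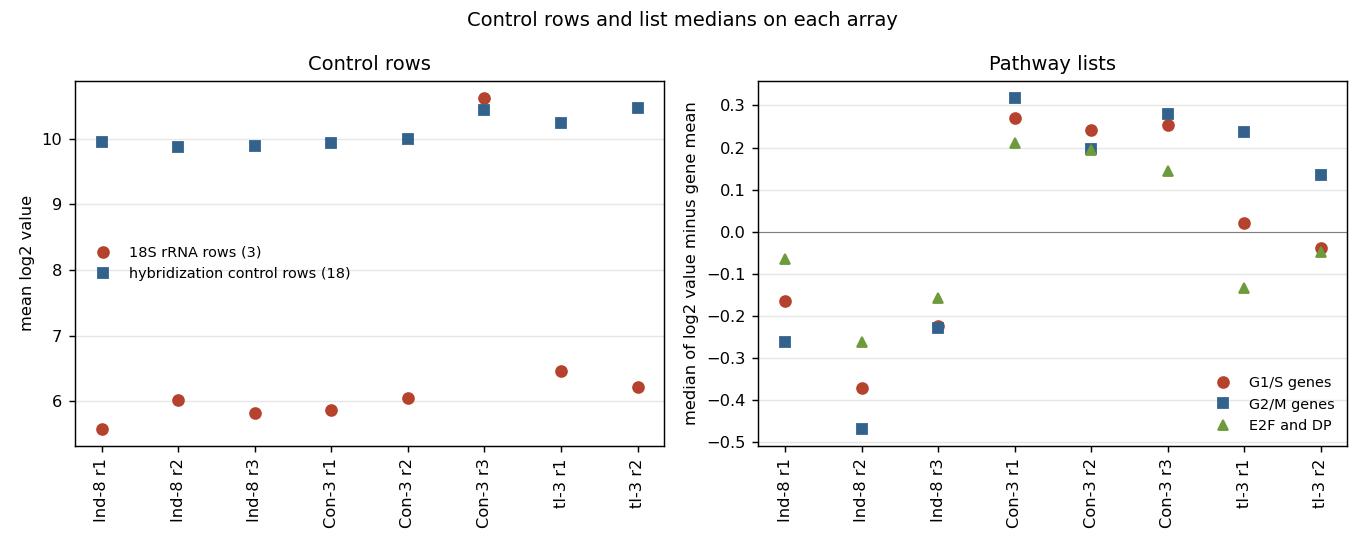
Mean log2 value of the 18S ribosomal RNA and hybridization control rows on each of the 8 arrays (left), and the median over genes of the log2 value minus the gene's own mean for the G1/S, G2/M and E2F/DP gene lists (right), with r1 to r3 for replicates. Con-3 replicate 3 is at 10.63 on the 18S rows, and the 3 Ind-8 arrays are below zero on all 3 gene lists.

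The labels were checked first. Trp53, the gene that encodes p53, read 5.68, 5.87 and 5.80 on the Ind-8 arrays, 5.21, 5.29 and 5.27 on the Con-3 arrays and 5.60 and 5.69 on the tI-3 arrays. It was higher in Ind-8 than in Con-3 (0.53 ± 0.0873 SE, limma adjusted p = 0.00192) and in tI-3 than in Con-3 (0.39, limma adjusted p = 0.0144), with no overlap between the arrays. Which part of the transcript its row covers is not known, so the row does not tell the cDNA from the disrupted gene. Mdm2, a p53 target that encodes the ubiquitin ligase of p53, averaged 10.90 in Ind-8, 8.90 in Con-3 and 9.62 in tI-3, and was higher in Ind-8 than in Con-3 by 2.00 (limma adjusted p = 1.09e-05) and in tI-3 than in Con-3 by 0.72 (limma adjusted p = 0.00492). The zinc-responsive metallothionein genes Mt1 and Mt2 had means of 13.62 to 13.88 and 13.07 to 13.45 in the 3 lines. Mt1 passed the threshold in no comparison by limma, and Mt2 was lower in tI-3 than in Con-3 (-0.39, limma adjusted p = 0.0248).

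Impdh2, which encodes IMPDH II, averaged 12.19 in Ind-8, 12.53 in Con-3 and 12.36 in tI-3. It was lower in Ind-8 than in Con-3 (-0.34, limma adjusted p = 0.0108), and the difference between tI-3 and Ind-8 did not pass the threshold (-0.17 for Ind-8 minus tI-3, limma adjusted p = 0.163), and neither did that between tI-3 and Con-3 (-0.17, limma adjusted p = 0.182). The row therefore does not show the IMPDH II cDNA of tI-3, and which part of the transcript it covers is not known. The related gene Impdh1 had means of 7.98 to 8.10 and passed in no comparison. Of 14 fibroblast markers, 12 had a mean above the 25th percentile of all rows, 4.30, which stands here for the dim end of the array, and Vim was the brightest at 13.89; Thy1 and Lum were at the dim end. No marker of the epithelial (6 measured), endothelial (4), blood (4) or muscle (4) lists had a mean above the median row.

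Of the 8 genes, 6 differed between Ind-8 and Con-3 at a limma adjusted p under 0.05. Cdkn1a, Cdkn2a, Cdkn2b and Rb1 were higher in Ind-8 and Cdkn2c and Rbl1 were lower, while Cdkn1b and Rbl2 did not pass. Over all 22523 rows tested, 10.9% were called higher and 11.0% lower. Against tI-3, 7 of the 8 genes were called: the same 4 and Rbl2 were higher in Ind-8, Cdkn2c and Rbl1 were lower, and Cdkn1b did not pass, with 15.6% of all rows called higher and 15.5% lower. Here Rbl1 was called by its row NM_011249 and not by its row NM_001139516, whereas both rows were called against Con-3. Between tI-3 and Con-3, 3 of the 8 genes were called, Cdkn1a higher in tI-3 and Cdkn2a and Rbl2 lower, against 10.2% of all rows higher and 15.1% lower. The 3 comparisons share arrays pairwise, so their counts are not independent.

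Arrays of the compared lines did not overlap for 8 of the 9 profiles in Ind-8 against Con-3, for 8 in Ind-8 against tI-3 and for 4 in tI-3 against Con-3. Over all rows tested, 38.0%, 60.3% and 51.6% did not overlap in these comparisons. By the rank product test of the study's methods, fewer members were called. Cdkn1a and Cdkn2b were called higher and Rbl1 lower in Ind-8 than in Con-3, the last by its row NM_001139516 and not by NM_011249. In this comparison that test called 2.17% of all rows higher and 1.44% lower. Cdkn1a and Cdkn2a were called higher in Ind-8 than in tI-3, with 1.56% of all rows higher and 0.435% lower. Only Cdkn1a was called between tI-3 and Con-3 by this test, higher in tI-3, with 0.630% of all rows higher and 1.67% lower. In these cultures, more cells with a transcript and more transcript per cell cannot be told apart.

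Without Con-3 replicate 3, limma called 4 genes between Ind-8 and Con-3 and 4 between tI-3 and Con-3, where Rbl1 joined Cdkn1a, Cdkn2a and Rbl2; the count against tI-3 remained 7. That fit called 16.2%, 23.7% and 32.2% of all rows in these comparisons, against 21.9%, 25.4% and 31.1% with all arrays. When arrays were blocked by hybridization-control level, 4 genes were called between Ind-8 and Con-3, 2 between Ind-8 and tI-3 and 1 between tI-3 and Con-3, with 16.2%, 3.14% and 13.6% of all rows called. In that fit Con-3 replicate 3 alone ties the tI-3 arrays to the other lines, and the part of the control level in the differences was not tested otherwise. Cdkn1a was called in all 3 comparisons of that fit, and Rbl1 was the other gene called against tI-3, by its row NM_001139516, at -1.04 instead of -0.37. In contrast, Cdkn2a (1.40), Cdkn2b (0.88), Cdkn2c (-0.75), Rb1 (0.79), Rbl2 (0.79) and the other row of Rbl1 (-0.66) lost that call with log2 differences of similar size. Without tI-3 replicate 2, which leaves a lone tI-3 array that is assumed to vary like the other lines, the count between tI-3 and Con-3 was 1, with 13.7% of all rows called.

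**Figure D2:**
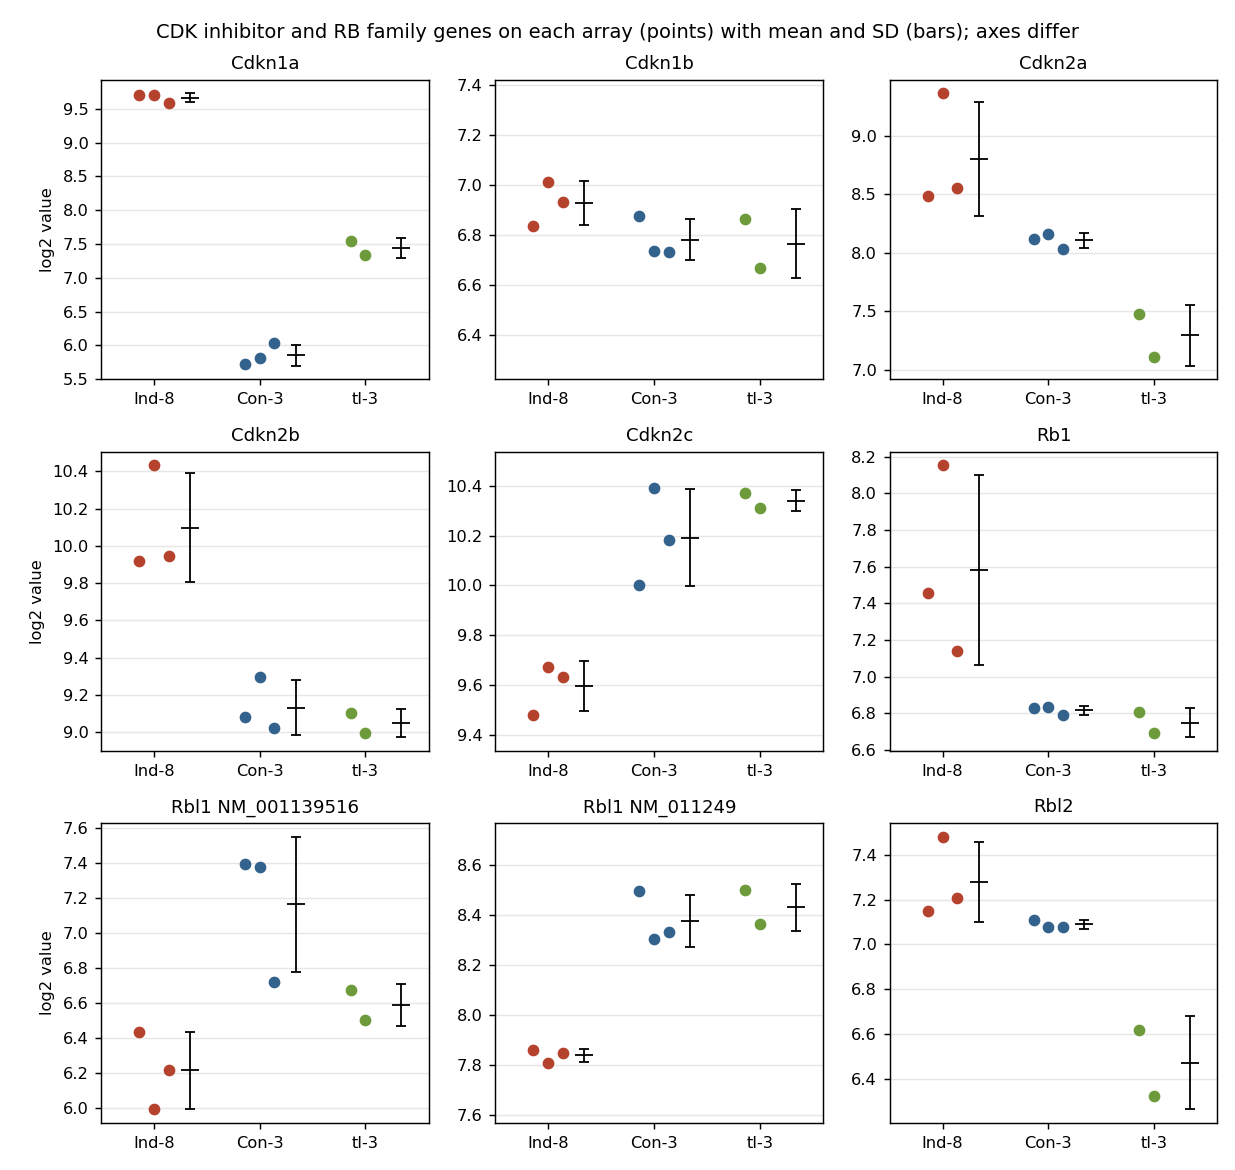
Log2 value of each of the 9 profiles on each array (points, replicates from left to right within a line) with the mean and SD of each line (bars); the axis of each panel has its own range. Cdkn1a lies at 9.59 to 9.70 in Ind-8, 7.33 to 7.55 in tI-3 and 5.73 to 6.03 in Con-3, while Cdkn1b spans 6.67 to 7.01 over all 8 arrays.

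Among the CIP/KIP genes, Cdkn1a encodes p21, the inhibitor that p53 induces after DNA damage. It read 9.70, 9.70 and 9.59 on the Ind-8 arrays, 7.55 and 7.33 on the tI-3 arrays, and 5.73, 5.81 and 6.03 on the Con-3 arrays. Every Ind-8 array was above both tI-3 arrays, and both tI-3 arrays were above every Con-3 array. The lines thus stood in the order Ind-8, tI-3, Con-3, with each step larger than the spread within a line. Ind-8 exceeded Con-3 by 3.81 ± 0.106 (SE), or 14.0-fold (limma adjusted p = 1.91e-08), and tI-3 by 2.22 ± 0.118, or 4.66-fold (limma adjusted p = 3.58e-06). tI-3 exceeded Con-3 by 1.59 ± 0.118, or 3.00-fold (limma adjusted p = 1.93e-05). All 3 calls held in every one of the 16 limma alternatives, over which the difference between Ind-8 and Con-3 ran from 3.74 to 3.89. Between Ind-8 and Con-3 these alternatives are not all separate fits. The hybridization-control block gave the same values as leaving out Con-3 replicate 3. The 2 compared lines alone gave the same values as leaving out either tI-3 array. The study picked Cdkn1a on these arrays as higher in Ind-8 than in both other lines, so its direction in those comparisons is not independent evidence.

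RefSeq promoter windows, 250 bases before to 50 after a transcript start on the mouse build GRCm38.p6, were found for 8 of the 9 genes, 11 windows in all. The window at the upstream start of Cdkn1a is shown because Cdkn1a is the p53 target of the family and moved most. The stretch is chr17:29090888-29090978 on the plus strand, the 91 bases just before the start, and capitals mark a p53 site of 20 bases, at 51 to 32 bases before the start.
Cdkn1a: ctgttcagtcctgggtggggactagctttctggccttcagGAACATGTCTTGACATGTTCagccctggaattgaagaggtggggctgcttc
This site consists of 2 adjacent p53 half-sites with 1 mismatch in all, and such a site was found in 0.0883% of 32851 RefSeq promoter windows of the same length and in no other window of these genes. The search for whole sites was added after half-sites had been seen in this window. A lone half-site without mismatch also lies at 73 to 64 bases before the start. Half-sites, searched on both strands, were in 8.36% of all windows and in those of Cdkn1a and Cdkn2d. A match describes the letters of the window and is not a measurement of binding.

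Cdkn1b encodes p27, which restrains cyclin E and CDK2. It read 6.84, 7.01 and 6.93 on the Ind-8 arrays, 6.88, 6.74 and 6.73 on the Con-3 arrays and 6.86 and 6.67 on the tI-3 arrays. All 3 lines overlapped. No comparison passed the threshold: the log2 difference between Ind-8 and Con-3 was 0.15 with a 95% interval from -0.07 to 0.36, and that between Ind-8 and tI-3 was 0.16 with an interval from -0.07 to 0.40. Between tI-3 and Con-3 it was -0.02, from -0.25 to 0.22. Of the other CDK inhibitors, Cdkn1c (p57) read 3.68 to 4.15 over the 8 arrays, under the dim end of 4.30, and Cdkn3 was not matched. Cdkn1c was called lower in Ind-8 than in tI-3 (-0.30, limma adjusted p = 0.0497) and passed in neither other comparison. That call was lost when any of 7 of the 8 arrays was left out. It was also not made with the 2 compared lines only, quantile-normalized values or the hybridization-control block. The fit to rows above the 25th percentile leaves Cdkn1c out, so it cannot speak to this call. With a trend in limma's prior, Cdkn1c was called higher in tI-3 than in Con-3.

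The INK4 genes moved in different directions. Cdkn2a encodes p16 and, from another first exon, p19Arf, which stabilizes p53 by binding Mdm2; the rows of both transcripts hold identical values, so the products are not told apart here. Cdkn2a read 8.48, 9.36 and 8.56 on the Ind-8 arrays, 8.12, 8.16 and 8.04 on the Con-3 arrays and 7.48 and 7.11 on the tI-3 arrays. The lines did not overlap, with Ind-8 highest and tI-3 lowest, and Ind-8 replicate 2 was well above the other Ind-8 arrays. Ind-8 exceeded tI-3 by 1.51 ± 0.228 (SE), or 2.84-fold (limma adjusted p = 0.00127). It exceeded Con-3 by 0.69 ± 0.204 (limma adjusted p = 0.0341), and tI-3 lay below Con-3 (-0.81 ± 0.228, limma adjusted p = 0.0250).

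The smaller Cdkn2a calls did not hold in every fit. Without Ind-8 replicate 2 the difference between Ind-8 and Con-3 was 0.41 and the call was lost. It was also lost without Con-3 replicate 1 (0.70), 2 (0.72) or 3 (0.66) and with the hybridization-control block (0.66), where the difference kept its size, with a limma adjusted p from 0.0226 to 0.0980 over the 16 alternatives. The call between tI-3 and Con-3 was lost without Con-3 replicate 1 (-0.81), Con-3 replicate 2 (-0.78) or tI-3 replicate 2 (-0.63), with quantile-normalized values (-0.69) and with the hybridization-control block (-0.74); its limma adjusted p ran from 0.00175 to 0.197. The call against tI-3 was lost under that block alone (1.40, limma adjusted p = 0.0975, in a range from 0.000693 to 0.0975).

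Cdkn2b, the neighbour of Cdkn2a, encodes p15, which TGF-beta induces. It read 9.92, 10.43 and 9.94 on the Ind-8 arrays, 9.08, 9.30 and 9.02 on the Con-3 arrays and 9.10 and 8.99 on the tI-3 arrays. Ind-8 was above both other lines on every array, and Con-3 and tI-3 overlapped. The differences were 0.97 ± 0.141 (SE) from Con-3, or 1.95-fold (limma adjusted p = 0.00109), and 1.05 ± 0.158 from tI-3, or 2.07-fold (limma adjusted p = 0.00124). tI-3 minus Con-3 was -0.08, with a 95% interval from -0.43 to 0.27. Cdkn2a and Cdkn2b lie side by side in the RefSeq annotation, between Mtap and Dmrta1; tI-3 was below Con-3 for Cdkn2a but overlapped it for Cdkn2b, a contrast that was not tested. Mtap itself averaged lower in tI-3 than in Con-3 (-0.34, limma adjusted p = 0.0246), a call that was lost without Con-3 replicate 2 or 3 or either tI-3 array, with quantile-normalized values and with the hybridization-control block. Mtap is outside the naming rule and is given for its place.

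Cdkn2c encodes p18, an INK4 protein that many cells make as they pass through S phase. It read 9.48, 9.67 and 9.64 on the Ind-8 arrays, 10.00, 10.39 and 10.18 on the Con-3 arrays and 10.37 and 10.31 on the tI-3 arrays. Here the Ind-8 arrays were the lowest, and Con-3 and tI-3 overlapped. Ind-8 lay below Con-3 (-0.59 ± 0.111 SE, limma adjusted p = 0.00409) and below tI-3 (-0.74 ± 0.124, limma adjusted p = 0.00217), a 1.51-fold and a 1.67-fold decrease. tI-3 minus Con-3 was 0.15, with a 95% interval from -0.13 to 0.42.

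Of the RB family, Rb1 encodes pRB, the pocket protein that binds the activating E2F factors. It read 7.46, 8.15 and 7.14 on the Ind-8 arrays, 6.83, 6.83 and 6.79 on the Con-3 arrays and 6.81 and 6.69 on the tI-3 arrays. The Ind-8 arrays were spread widely but all lay above the other 5, and Con-3 and tI-3 overlapped. Ind-8 exceeded Con-3 by 0.77 ± 0.203 (SE, limma adjusted p = 0.0214) and tI-3 by 0.84 ± 0.227 (limma adjusted p = 0.0201). Without Ind-8 replicate 2 these differences were 0.48 and 0.55. The first call was lost without Con-3 replicate 2 (0.78) or replicate 3 (0.75) and with the hybridization-control block (0.75), with a limma adjusted p from 0.00440 to 0.0630 over the alternatives. The second was lost without either tI-3 array (0.89 without replicate 1, 0.78 without replicate 2) and with the hybridization-control block (0.79), over a range of 0.00476 to 0.324.

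Rbl1 encodes p107, a pocket protein that cycling cells make in S phase. It was measured by rows for 2 transcripts whose values differ. For NM_011249, the arrays read 7.86, 7.81 and 7.85 in Ind-8, 8.50, 8.30 and 8.33 in Con-3 and 8.50 and 8.37 in tI-3. The Ind-8 arrays were the lowest and close together, and the other lines overlapped. Ind-8 lay below Con-3 (-0.54 ± 0.0893 SE, limma adjusted p = 0.00211) and below tI-3 (-0.59 ± 0.0999, limma adjusted p = 0.00223).

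For NM_001139516, the arrays read 6.43, 5.99 and 6.22 in Ind-8, 7.39, 7.38 and 6.72 in Con-3 and 6.67 and 6.50 in tI-3. Ind-8 was again lowest, with tI-3 between the other lines, and Con-3 replicate 3 was far below the other Con-3 arrays. Ind-8 lay below Con-3 by this row as well (-0.95 ± 0.180 SE, limma adjusted p = 0.00440), but the difference from tI-3 did not pass (-0.37, limma adjusted p = 0.178). That difference ran from -1.04 to -0.26 over the alternatives and passed with the hybridization-control block alone (-1.04, limma adjusted p = 0.0426, in a range from 0.0426 to 0.457). tI-3 minus Con-3 was -0.57 (limma adjusted p = 0.0605) and passed without Con-3 replicate 3 (-0.80, limma adjusted p = 0.00535). Over all limma alternatives it ran from -0.80 to -0.13, with adjusted p from 0.00535 to 0.710. For NM_011249 the same comparison gave 0.06, so the rows differ in where they place tI-3, and the difference between the rows was not tested.

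The promoter of Rbl1 is shown because E2F factors are known to act on this gene, which gives p107 a place among the targets of its own family. The stretch is chr2:157204535-157204634 on the minus strand of GRCm38.p6, the 100 bases just before the RefSeq start, and capitals mark the E2F site TTTCGCGC, at 18 to 11 bases before the start.
Rbl1: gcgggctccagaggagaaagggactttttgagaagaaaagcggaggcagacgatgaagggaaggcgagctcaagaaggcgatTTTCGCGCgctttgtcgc
TTTCGCGC, searched on both strands, was in 0.323% of the 32851 promoter windows and in 1 of the 11 windows of these genes, that of Rbl1. The other E2F site searched, TTTGGCGC, was in 0.514% of all windows and in none of these 11. The Sp1 box GGGCGG was in 35.7% of all windows and in 9 of the 11, and the cell cycle homology region TTTGAA was in 17.9% of all windows and in those of Cdkn2b and Rbl2. Absence of a match says only that these letters are not in the window.

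Rbl2 encodes p130, the pocket protein of resting cells and a part of the DREAM repressor. It read 7.15, 7.48 and 7.21 on the Ind-8 arrays, 7.11, 7.08 and 7.08 on the Con-3 arrays and 6.62 and 6.33 on the tI-3 arrays. Both tI-3 arrays were below all others, and Ind-8 and Con-3, which did not overlap, were separated by 0.04 only. Ind-8 exceeded tI-3 by 0.81 ± 0.126 (SE), or 1.75-fold (limma adjusted p = 0.00153), and tI-3 lay below Con-3 (-0.62 ± 0.126, limma adjusted p = 0.00537). Ind-8 minus Con-3 was 0.19, with a 95% interval from -0.06 to 0.44 (limma adjusted p = 0.278). The call between tI-3 and Con-3 was lost without tI-3 replicate 2 (-0.47) and with the hybridization-control block (-0.61), with limma adjusted p from 0.00398 to 0.0682 over the alternatives. Rb1 and Rbl2 were therefore both higher in Ind-8 than in tI-3, and Rbl1 was lower by its row NM_011249.

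**Figure D3:**
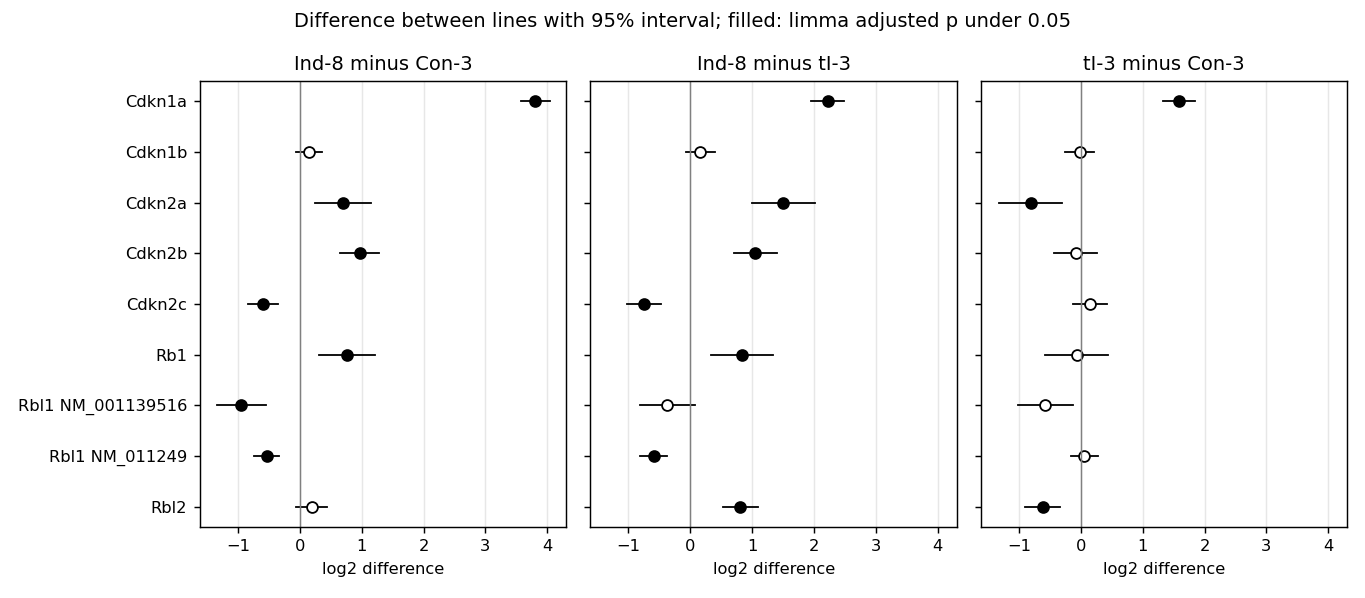
Log2 difference of each profile (point) with its 95% interval (line) in the 3 comparisons; filled points passed a limma adjusted p of 0.05. Cdkn1a is the only profile above zero in all 3 panels, at 3.81, 2.22 and 1.59, and Cdkn2c and both rows of Rbl1 are below zero in the 2 panels for Ind-8.

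The kinases that these inhibitors restrain were compared next. The counts of this and the following lists are to be read beside the shares of all rows called, 10.9% higher and 11.0% lower for Ind-8 minus Con-3, 15.6% and 15.5% for Ind-8 minus tI-3, and 10.2% and 15.1% for tI-3 minus Con-3. Of Cdk1, Cdk2, Cdk4 and Cdk6, 3 were lower in Ind-8 than in Con-3, with a list median of -0.44 against -0.06 over all rows. Cdk6, the G1 kinase that INK4 proteins bind, read 6.22, 6.54 and 6.39 in Ind-8, 7.52, 7.15 and 6.81 in Con-3 and 5.87 and 6.15 in tI-3. It was highest on the Con-3 arrays, with a log2 difference of -0.77 in Ind-8 (limma adjusted p = 0.00854) and of -1.15 in tI-3 (limma adjusted p = 0.00158) from Con-3. Cdk1, the mitotic kinase, was lower in Ind-8 than in Con-3 (-0.56, limma adjusted p = 0.00184), and Cdk2 was lower as well (-0.33, limma adjusted p = 0.0172). The same 3 genes were lower in tI-3 than in Con-3, and none of the 4 passed between Ind-8 and tI-3. By the rank product test 1 kinase was lower in each line than in Con-3. Cdk4 passed in no comparison, with means of 11.81 to 11.92.

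Of 6 cyclins of G1 and S phase, 2 were higher and 1 lower in Ind-8 than in Con-3, where 10.9% of all rows were higher and 11.0% lower. Ccnd2 (cyclin D2) read 10.39, 11.23 and 11.00 in Ind-8, 10.08, 10.24 and 10.26 in Con-3 and 10.06 and 9.83 in tI-3, so that every Ind-8 array was above the rest. It was higher in Ind-8 than in Con-3 by 0.68 (limma adjusted p = 0.0226) and than in tI-3 by 0.93 (limma adjusted p = 0.00771). Ccnd1 (cyclin D1) was higher than in Con-3 by 0.31 (limma adjusted p = 0.0272), and Ccna2 (cyclin A2) was lower in Ind-8 than in Con-3 (-0.71, limma adjusted p = 0.000536) and in tI-3 (-0.69, limma adjusted p = 0.00107). Neither D-type cyclin passed against Con-3 without Con-3 replicate 3 or 2, or without Ind-8 replicate 2 or 3, and Ccnd2 did not pass against tI-3 without tI-3 replicate 2. With the hybridization-control block, none of the 6 was called higher in Ind-8 than in either other line. Under that block the Ccna2 call against tI-3 was lost as well. Ccne2 passed in no comparison (-0.16 for Ind-8 minus Con-3). Between tI-3 and Con-3, 1 of the 6 was lower, Ccnd3, named here after its value was seen (-0.38, limma adjusted p = 0.0465); that call was lost in most alternatives, among them those without any 1 of 6 arrays. None of the 6 was called by the rank product test. List medians were -0.06, 0.15 and -0.10 in the 3 comparisons, and -0.08, 0.02 and 0.02 with quantile-normalized values.

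Among 10 E2F and DP factors, the DNA-binding partners of the RB family, 6 were lower in Ind-8 than in Con-3 and none was higher, with a list median of -0.44. E2f8, an atypical repressor that is itself an E2F target, read 6.81, 6.68 and 6.70 in Ind-8, 7.67, 7.27 and 7.50 in Con-3 and 6.94 and 7.24 in tI-3. It was lowest on the Ind-8 arrays (-0.75 from Con-3, limma adjusted p = 0.00183). E2f7, its close relative, was lower in Ind-8 than in Con-3 (-0.55, limma adjusted p = 0.0450), as were E2f4, the usual partner of p107 and p130 (-0.55, limma adjusted p = 0.00521), and Tfdp1, which encodes the dimer partner DP1 (-0.48, limma adjusted p = 0.00400). Against tI-3, 1 factor was higher and 2 were lower in Ind-8, with a median of -0.02 against -0.06 over all rows, or of -0.18 against -0.02 with quantile-normalized values. The count of 2 was 1 without Ind-8 replicate 1 or 2 or tI-3 replicate 1 and 0 with the hybridization-control block. The higher call was lost when any of these arrays or tI-3 replicate 2 was left out, with that block and with quantile-normalized values. In tI-3, 4 were lower and none higher than in Con-3, with a median of -0.24; E2f4 (-0.51, limma adjusted p = 0.0114) and E2f7 (-0.63, limma adjusted p = 0.0383) were among them. The count of 4 was 1 with quantile-normalized values and when either tI-3 array was left out, 2 without Con-3 replicate 1 and 0 with the hybridization-control block. By the rank product test 1 factor was lower in Ind-8 than in Con-3, and none was called in the other comparisons.

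The MuvB core, B-Myb and FoxM1 form the complexes that repress or activate mitotic genes, and 6 of their 7 genes were matched. Mybl2 (B-Myb) read 6.46, 5.70 and 6.25 in Ind-8, 7.78, 7.60 and 7.58 in Con-3 and 6.44 and 6.63 in tI-3. Con-3 was clearly highest, and Ind-8 and tI-3 overlapped. With all arrays in the fit, Mybl2 was the only gene of this list that was called, lower in Ind-8 than in Con-3 (-1.52 ± 0.169 SE, limma adjusted p = 0.000228) and lower in tI-3 than in Con-3 (-1.12 ± 0.189, limma adjusted p = 0.00192). Foxm1 (-0.41), Lin9 (-0.33) and Rbbp4 (-0.22) did not pass between Ind-8 and Con-3. None of the 6 passed between Ind-8 and tI-3 at a limma adjusted p under 0.05. Without Ind-8 replicate 1, 2 genes were lower in Ind-8 than in Con-3 and 1 was lower than in tI-3, and 1 was also lower than in tI-3 with quantile-normalized values. With the replicate number in the fit, 1 was higher in Ind-8 than in tI-3 and 2 were lower in tI-3 than in Con-3.

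Ubiquitin ligases set how long p21 and p27 proteins last, which the arrays do not measure. Of 9 ligase genes, 2 were lower and 1 was higher in Ind-8 than in Con-3, where 11.0% of all rows were lower and 10.9% higher. Skp2, which recognizes p27, read 8.07, 8.04 and 8.08 in Ind-8, 9.05, 8.76 and 8.74 in Con-3 and 8.26 and 8.05 in tI-3. Con-3 was above both other lines, which overlapped. Skp2 was lower in Ind-8 than in Con-3 (-0.79, limma adjusted p = 0.000722) and in tI-3 than in Con-3 (-0.69, limma adjusted p = 0.00210). Dtl, a receptor that marks p21 for destruction in S phase, was lower in both lines as well (-0.52, limma adjusted p = 0.00222, and -0.41, limma adjusted p = 0.0117). Skp1, the adaptor of the SCF ligases, was higher in Ind-8 than in Con-3 by 0.39 (limma adjusted p = 0.0410) and than in tI-3 by 0.50 (limma adjusted p = 0.0186), where it was the single gene called. Its first call was lost when any of 6 of the 8 arrays was left out, Con-3 replicate 3 among them, and its second when Ind-8 replicate 1 or 2 or tI-3 replicate 2 was left out and with the hybridization-control block. The first Skp1 call was also lost with that block, with the 2 compared lines only and with median centring. With the replicate number in the fit, 2 ligase genes were higher in Ind-8 than in Con-3. The number of ligase genes called lower against tI-3 was 0 with all arrays and 2 with quantile-normalized values. It was 1 with median centring, with a trend in the prior and with rows above the 25th percentile. In tI-3, 3 of the 9 were lower than in Con-3, or 2 without Con-3 replicate 3 and 1 without tI-3 replicate 2 or with the hybridization-control block. With quantile-normalized values 1 was lower and 2 were higher, against none higher in the main fit to the deposited values. On the deposited values 1 was higher with a trend in the prior, the replicate number in the fit or rows above the 25th percentile. The same count was reached with the hybridization-control block and without Ind-8 replicate 3 or Con-3 replicate 1. Cul4a did not pass between Ind-8 and Con-3 (0.30).

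A list of 14 genes held regulators of the Ink4/Arf locus, such as Polycomb and T-box proteins, and the neighbour Mtap. Of these, 1 was higher and 4 were lower in Ind-8 than in Con-3. The lower count was 1 without Ind-8 replicate 1 or 2, 2 without Con-3 replicate 1 or 2 and 3 without Con-3 replicate 3. The higher call was lost without Ind-8 replicate 1 or any Con-3 array, and with the hybridization-control block. With the replicate number in the fit, 2 were higher. Ezh2, the Polycomb methyltransferase, averaged 9.47 in Ind-8, 9.92 in Con-3 and 10.01 in tI-3, and was lower in Ind-8 than in Con-3 (-0.45, limma adjusted p = 0.0131) and in tI-3 (-0.54, limma adjusted p = 0.00776). Ets1, an activator of p16, was lower than in Con-3 (-0.40, limma adjusted p = 0.0316) and than in tI-3 (-0.39, limma adjusted p = 0.0434). Cbx7, a Polycomb reader, was lower than in Con-3 (-0.40, limma adjusted p = 0.0159). The related activator Ets2 was higher in Ind-8 than in Con-3 by 0.43 (limma adjusted p = 0.0274) and in tI-3 than in Con-3 by 0.80 (limma adjusted p = 0.00198). Against tI-3 the 2 lower calls, Ezh2 and Ets1, became 0 without tI-3 replicate 1 and with the hybridization-control block, and 1 without Ind-8 replicate 2 or 3, Con-3 replicate 2 or tI-3 replicate 2. With the replicate number in the fit, 1 was lower and 1 higher in Ind-8 than in tI-3. Between tI-3 and Con-3, 1 of the 14 was higher, Ets2, and 2 were lower, Mtap among them. That lower count was 0 with the hybridization-control block, without Con-3 replicate 2 and by the rank product test. It was 1 with the 2 compared lines only and with quantile-normalized values. The same count of 1 was reached without Ind-8 replicate 1 or 3 or Con-3 replicate 1 or 3. The list median was -0.05 for Ind-8 minus Con-3 and -0.06 for Ind-8 minus tI-3, against -0.06 over all rows in both. For tI-3 minus Con-3 it was -0.02, against 0.04, or 0.08 against 0.01 with quantile-normalized values.

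**Figure D4:**
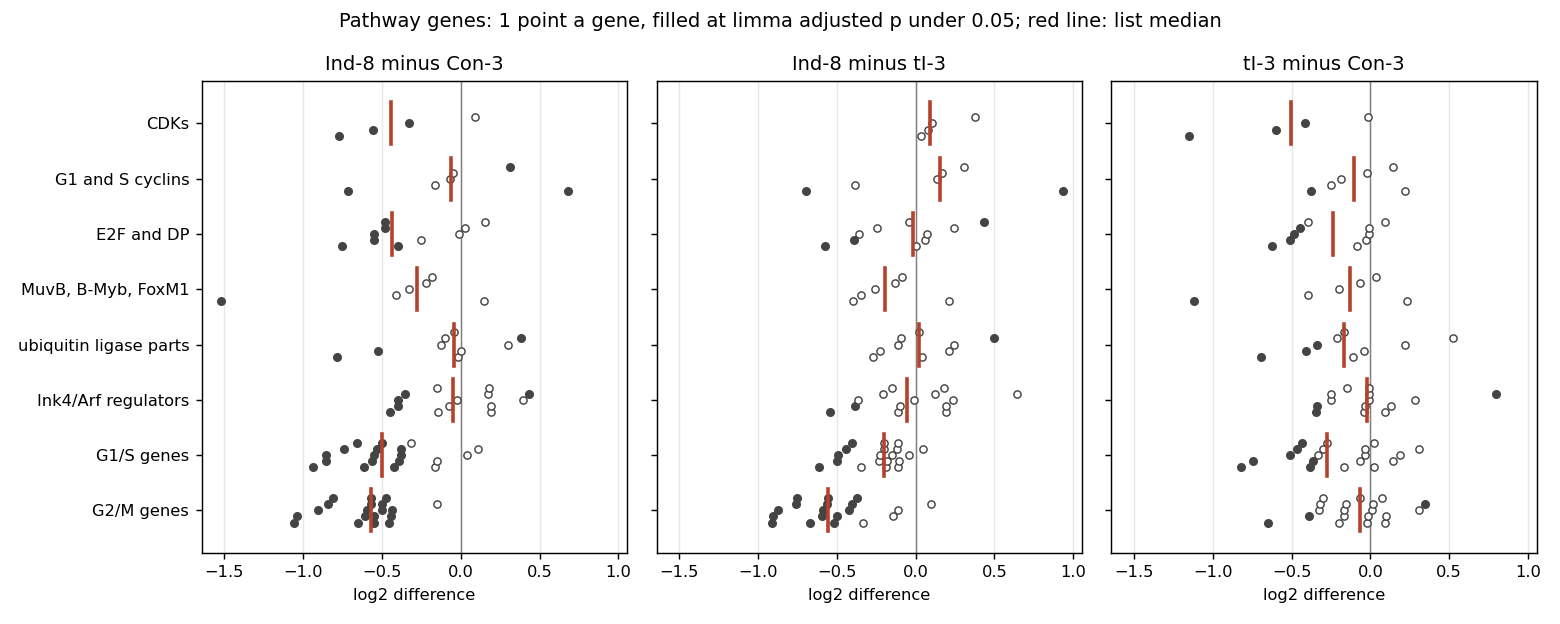
Log2 difference of each measured gene (points, filled where the limma adjusted p was under 0.05) in 8 pathway lists, with the median of each list (red line), in the 3 comparisons. The G2/M genes have medians of -0.57, -0.55 and -0.07, and the G1/S genes of -0.50, -0.20 and -0.27.

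Genes that the RB family holds down were taken in 2 lists, those of G1/S and those of G2/M, with 19 measured in each (Pcna and Mki67 were not matched). Of the G1/S genes, 14 were lower and none higher in Ind-8 than in Con-3, with a median of -0.50. Cdc6, a licensing factor of replication origins, read 8.47, 8.45 and 8.63 in Ind-8, 9.60, 9.39 and 9.36 in Con-3 and 8.66 and 8.60 in tI-3. Con-3 was well above the rest, and the tI-3 arrays lay at the upper end of Ind-8. The differences from Con-3 were -0.94 in Ind-8 (limma adjusted p = 0.000160) and -0.82 in tI-3 (limma adjusted p = 0.000533). Mcm5, a subunit of the replicative helicase, was lower in Ind-8 than in Con-3 (-0.86, limma adjusted p = 0.000254), as were Tk1 (thymidine kinase, -0.86, limma adjusted p = 0.000619) and Pola1 (DNA polymerase alpha, -0.74, limma adjusted p = 0.000695).

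Against tI-3, 5 of the 19 G1/S genes were lower in Ind-8, with a median of -0.20. With quantile-normalized values 8 were lower and the median was -0.33, while the count was 1 without tI-3 replicate 2 and none without tI-3 replicate 1. Between tI-3 and Con-3, 7 were lower, with a median of -0.27, or -0.14 with quantile-normalized values. The count was 2 without tI-3 replicate 2 and with the hybridization-control block, and 6 without Con-3 replicate 3. The rank product test called 4 of the 19 lower in Ind-8 than in Con-3 and none in the other comparisons. On single arrays, the median over the 19 genes of the value minus the gene's own mean was -0.16, -0.37 and -0.22 in Ind-8, 0.27, 0.24 and 0.25 in Con-3 and 0.02 and -0.04 in tI-3. By this measure the tI-3 arrays lay between the other lines.

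Of the 19 G2/M genes, 18 were lower in Ind-8 than in Con-3, all but Nusap1, and 15 were lower in Ind-8 than in tI-3, with medians of -0.57 and -0.55. By the rank product test these counts were 5 and 0. Birc5 (survivin) read 10.47, 10.16 and 10.42 in Ind-8, 11.45, 11.36 and 11.41 in Con-3 and 11.10 and 10.94 in tI-3. The lines were separate, in the order Con-3, tI-3, Ind-8, and Ind-8 was lower than Con-3 (-1.06, limma adjusted p = 0.000109) and than tI-3 (-0.67, limma adjusted p = 0.00239). Cdc25c, the phosphatase that activates CDK1, read 7.20, 6.98 and 7.28 in Ind-8, 8.13, 8.25 and 8.20 in Con-3 and 8.10 and 7.95 in tI-3. Ind-8 was far below both other lines (-1.04 from Con-3, limma adjusted p = 0.000110, and -0.87 from tI-3, limma adjusted p = 0.000537), and tI-3 minus Con-3 did not pass (-0.17, limma adjusted p = 0.314). The mitotic kinesins Cenpe and Kif20a were lower in Ind-8 than in Con-3 (-0.91, limma adjusted p = 0.00176, and -0.84, limma adjusted p = 0.000377) and than in tI-3 (-0.75, limma adjusted p = 0.00770, and -0.91, limma adjusted p = 0.000432).

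Of the G2/M genes, 2 were lower in tI-3 than in Con-3 and 1 was higher. The lower count was 1 when any Con-3 or tI-3 array was left out, and the higher call was lost without Con-3 replicate 2 or 3 or tI-3 replicate 1. The lower count was also 1 with quantile-normalized values and with the hybridization-control block. The higher call was lost with that block, while 2 were higher with quantile-normalized values. By the rank product test none was called in either direction. The list median was -0.07, against 0.04 over all rows, or 0.04 against 0.01 with quantile-normalized values. The median over the list of the value minus the gene's own mean was -0.26, -0.47 and -0.23 on the Ind-8 arrays, 0.32, 0.20 and 0.28 on the Con-3 arrays and 0.24 and 0.13 on the tI-3 arrays. On this list the tI-3 arrays therefore stood beside Con-3, whereas on the G1/S list they stood between the other lines, a contrast between lists that was not tested. Without Con-3 replicate 3, 16 G2/M genes and 11 G1/S genes were called lower in Ind-8 than in Con-3. With the hybridization-control block, 3 G2/M genes and no G1/S gene were called lower in Ind-8 than in tI-3.

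**Figure D5:**
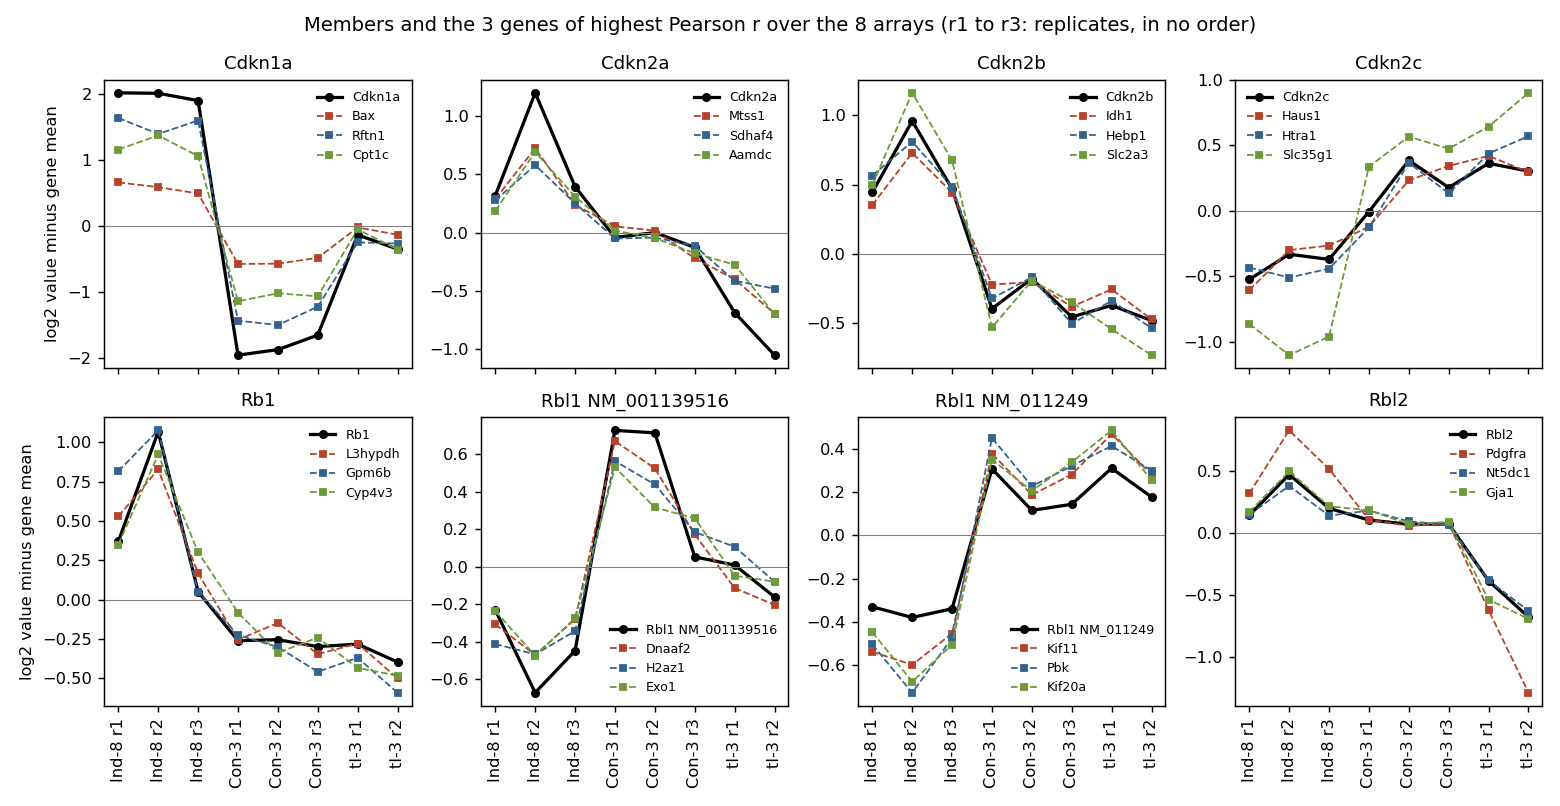
Log2 value minus the gene's own mean on each of the 8 arrays for the 8 profiles called in at least 1 comparison (black) and, for each, the 3 genes with the highest Pearson r to it (coloured); lines only guide the eye, since replicates have no order. Cdkn1a and Bax have r = 0.997, and Rbl1 NM_011249 and Kif11 have r = 0.994.

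For each profile called in any comparison, the 3 genes with the most similar pattern over the 8 arrays were taken from the 2249 or 2250 other genes above the dim end whose values spanned at least 1 log2 unit. These correlations describe 3 clusters of arrays and carry no test, and genes chosen this way follow the order of lines of the member by the choice itself. Cdkn1a was most like Bax (r = 0.997), an activator of apoptosis and a p53 target, Rftn1 (0.997) and Cpt1c (0.995). Bax read 11.21, 11.14 and 11.04 in Ind-8, 9.97, 9.98 and 10.07 in Con-3 and 10.53 and 10.42 in tI-3. The steps between lines were smaller than those of Cdkn1a.

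Cdkn2a was most like Mtss1 (r = 0.986), Sdhaf4 (0.984) and Aamdc (0.982), and Cdkn2b like Idh1 (0.990), Hebp1 (0.988) and the glucose transporter gene Slc2a3 (0.987). Rb1 was most like L3hypdh (0.965), Gpm6b (0.959) and Cyp4v3 (0.954). Cdkn2c was most like Haus1 (0.955), a subunit of the mitotic augmin complex, Htra1 (0.954) and Slc35g1 (0.943).

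The 2 rows of Rbl1 had different neighbours. NM_011249 was most like Kif11 (r = 0.994), Pbk (0.988) and Kif20a (0.986), 3 genes of mitosis. NM_001139516 was most like Dnaaf2 (0.969), the histone gene H2az1 (0.952) and the exonuclease gene Exo1 (0.944). Rbl2 was most like Pdgfra (0.992), a growth factor receptor of fibroblasts, Nt5dc1 (0.991) and the connexin gene Gja1 (0.991). Pdgfra read 7.30, 7.81 and 7.50 in Ind-8, 7.09, 7.04 and 7.06 in Con-3 and 6.36 and 5.69 in tI-3.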

How the data were processed

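RNA of the 8 cultures was hybridized by the authors to 1 Affymetrix mouse array each. The deposited values are log2 expression after RMA with probes regrouped by RefSeq transcript (RMA version not given in the sources used here), and no further normalization was applied. Of 22587 rows, 64 control rows were left out of the tests. A table of RefSeq genes of GRCm38.p6, used for names and gene order, named 18294 rows (81.2%). The fit was made with limma 3.58.1 (R 4.3.3), with 1 mean per line over all 8 arrays, with Benjamini-Hochberg adjustment over 22523 rows and a threshold of 0.05. The alternative rank product test was re-implemented with 100 permutations and a percent of false positives under 0.05. Both were tested on simulated data, the outcome of which is not given here. Tables and figures were made with Python 3.11.15, numpy 2.4.6, scipy 1.17.1, pandas 2.3.3 and matplotlib 3.10.9.

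The members and gene lists were chosen with earlier results of these data known. Each list gene is given by its row of highest mean; Cdkn3, Lin52, Pcna, Mki67 and Cd68 were not matched. Named genes are all members, the label checks, the up to 4 genes of each list with the largest absolute difference between Ind-8 and Con-3, and the 3 genes most like each called member; others are marked. Alternatives were a trend in limma's prior, the 2 compared lines only, the replicate number as a block, rows above the 25th percentile, quantile normalization, median centring, distinct profiles once, the hybridization controls as a block, a minimum difference of 1, and each array left out in turn. The sources call the cultures biological replicates, and the number of arrays limits the precision.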

Additional observations from a re-analysis of the deposited data

How the results depend on the processing

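Of the 27 differences of the 9 profiles, each recomputed under 16 limma alternatives and the rank product test, 415 values kept direction and side of the threshold, 34 were no longer called, 3 became called and 7 changed sign, none of which was a call. For Ind-8 minus Con-3 some of these alternatives coincide, as described for Cdkn1a. The number of member genes called moved by over 1.5 times under few settings. By the rank product test it was 3, 2 and 1 for Ind-8 minus Con-3, Ind-8 minus tI-3 and tI-3 minus Con-3, where limma called 6, 7 and 3, and with a minimum log2 difference of 1 it was 1, 3 and 1. With the hybridization-control block it was 2 for Ind-8 minus tI-3 and 1 for tI-3 minus Con-3; in that fit 1 array ties the tI-3 arrays to the others. Leaving out 1 array gave 4 to 6, 6 to 7 and 1 to 4, the last with 1 without tI-3 replicate 2. Otherwise the cause was not tested.

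Signs changed for tI-3 minus Con-3 of Cdkn1b with quantile normalization (0.037), with the hybridization-control block (0.0327) and without Con-3 replicate 1 (0.0314), where leaving out an array gave -0.113 to 0.0809 (without tI-3 replicates 1 and 2). In that comparison they also changed for Cdkn2b with the block (0.0288), for Rb1 with quantile normalization (0.0285) and for Rbl1 NM_011249, which ran from -0.0115 to 0.121 without tI-3 replicates 1 and 2. Among the other genes, Impdh1 ran from -0.0132 to 0.161 in Ind-8 minus Con-3 and from -0.133 to 0.0416 in Ind-8 minus tI-3 when an array was left out, and was 0.0148 in the latter with the block. Mt1 was -0.0887 in Ind-8 minus tI-3 and 0.199 in tI-3 minus Con-3 with quantile normalization, and ran from -0.263 to 0.0443 in the latter when an array was left out. In Ind-8 minus Con-3, Cdkn1c was -0.0077 with median centring and ran from -0.0264 to 0.0344, and Ccne2 from -0.290 to 0.0635, when an array was left out. The cause was not tested.

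Deviations of arrays with the same replicate number correlated from -0.23 to 0.38 (7 pairs) and those with different numbers from -0.41 to 0.24 (14 pairs). The deviations of the 2 tI-3 arrays are equal and opposite by construction, so pairs with tI-3 mirror each other and tell little about pairing. Between Ind-8 and Con-3, same-number pairs gave 0.27, 0.03 and 0.38, and different-number pairs -0.41 to 0.12. Whether the numbers pair the cultures was not tested further, and the main fit holds no replicate term. With the replicate block, 6, 7 and 4 member genes were called and 1 call was added, that of Rbl1 NM_001139516 in tI-3 minus Con-3 (-0.68, limma adjusted p = 0.0188, in a range from 0.00535 to 0.710 over the alternatives); it changed no other member's call. No fit listed in the methods above was left out. Over all rows limma called 4942, 7009 and 5715, the replicate block 5382, 8341 and 6376, the rank product test 813, 450 and 518, the hybridization-control block 708 and 3066 for Ind-8 minus tI-3 and tI-3 minus Con-3, and the fit without tI-3 replicate 2 called 2781 and 3093. The 2 tI-3 arrays limit both comparisons of that line, and dim rows such as Cdkn1c lie near background.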

Other observations

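Several fibroblast markers differed between tI-3 and the other lines, in both directions; their names were picked with the values in view. Col3a1 (type III collagen) read 7.91, 9.32 and 9.18 on the Ind-8 arrays, 8.59, 9.37 and 9.25 on the Con-3 arrays and 6.26 and 6.51 on the tI-3 arrays. Both tI-3 arrays were below all others, with a log2 difference of -2.68 from Con-3 (limma adjusted p = 0.000621), and Ind-8 exceeded tI-3 by 2.42 (limma adjusted p = 0.00130). Replicate 1 was the lowest array within each of the 3 lines for Col3a1, Col1a1, Col1a2 and Fbn1. Col1a1 (type I collagen) was lower in tI-3 than in Con-3 as well (-1.06, limma adjusted p = 0.00474) and than in Ind-8 (1.49 for Ind-8 minus tI-3, limma adjusted p = 0.000907), and the fibrillin gene Fbn1 was lower in tI-3 than in Con-3 (-0.79, limma adjusted p = 0.00564), whereas the fibronectin gene Fn1 was higher in tI-3 than in Con-3 (0.28, limma adjusted p = 0.0482), and Col1a2 (-0.01), Dcn (0.23) and Lum (-0.10) did not pass. Of the 14 fibroblast markers, 6 were lower and 3 higher in tI-3 than in Con-3, and 7 were higher and 1 lower in Ind-8 than in tI-3. Of all rows, 15.1% were lower and 10.2% higher in the first comparison, and 15.6% higher and 15.5% lower in the second. The summed log2 value of the 14 genes was 134, 137 and 138 on the Ind-8 arrays, 133, 135 and 136 on the Con-3 arrays and 129 on both tI-3 arrays.

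Some markers of other cell types were called higher in tI-3 than in Con-3, 1 each among the endothelial, blood and muscle markers: Kdr (0.44, limma adjusted p = 0.0133), Cd3e (0.42, limma adjusted p = 0.0133) and Ckm (0.37, limma adjusted p = 0.0176), also named after their values were seen. Of all rows, 10.2% were called higher in this comparison. The list medians were 0.24 (epithelial), 0.08 (endothelial), 0.25 (blood) and 0.22 (muscle), against 0.04 over all rows. With quantile-normalized values they were 0.14, -0.02, 0.15 and 0.16, against 0.01. None of the 6 epithelial markers was called in any comparison by limma. All of these markers averaged below the median row, and their part in the differences of the CDK inhibitors and RB family between tI-3 and the other lines was not tested.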
